A study of Mus musculus with 45 samples.

Results

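The domains described here lie in the parts of the mouse genome where acetylated regions are packed most closely. A domain is a stretch of the genome in which the authors called enrichment of histone H3 acetylated at lysine 9 (H3K9ac). Members were the autosomal domains between 0.78 and 5.0 kb wide that had 200 or more other domain midpoints within 1 Mb on either side. The rule used position and width and no difference between groups, and it gave 282 of the 44165 domains, or 0.639%. They are called dense domains below. Of the 20872 autosomal domains of this width they made up 1.35%, and the remaining 20590, with fewer neighbours, served for comparison.

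H3K9ac is placed by histone acetyltransferases such as GCN5 and PCAF and removed by histone deacetylases, and it marks active promoters and part of the active enhancers. Regions with many closely spaced acetylated domains are typically rich in genes, many of them expressed in most cell types. Such chromatin tends to lie away from the nuclear lamina and to replicate early in S phase. In the hippocampus, acetylation of histone H3 follows neuronal activity and has been studied in learning and in neurodegeneration.

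Chromatin immunoprecipitation with an H3K9ac antibody, followed by sequencing (ChIP-seq), gave 23 libraries of hippocampus from 2 mouse models. Mice carrying MAPT P301S, a mutant human tau, were set against age- and sex-matched wild type mice at 6 months (females, 2 tau and 3 wild type libraries) and at 11 months (males, 3 and 3), so age and sex changed together. Female CK-p25 mice, which carry 2 transgenes and express p25, an activator of the kinase Cdk5, were compared with CK control littermates. p25 was induced at 3 months of age. Mice were studied 2 weeks later, at 3.5 months of age, and 6 weeks later, at 4.5 months, with 3 libraries a group. In CK-p25 mice the CaMKII promoter places p25 in forebrain neurons, while the sources used here do not name the promoter of the tau transgene. The study asked which acetylated regions change in disease models relative to controls. Bulk tissue was used, so fewer cells of a type and less acetylation per cell cannot be told apart. Coordinates are 1-based on the mouse build mm9, and no annotation of that build was used, so domains are given by position and tissue markers were not checked.

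The tau series had between 4.098 and 6.18 M reads in domains per library, and the CK-p25 series between 0.996 and 4.13 M. Of these reads, dense domains took from 43202 to 65939 in tau-series libraries and from 9825 to 41758 in CK-p25-series libraries. At 6 weeks CK replicate 3 and CK-p25 replicate 3 were the shallowest libraries of their groups, with 0.996 and 1.31 M reads. The cross correlation that the submitters list per library at 11 months was 0.228 ± 0.0263 in tau mice (SD over 3 libraries) and 0.313 ± 0.0250 in wild type mice (SD over 3), without overlap. No label says whether libraries come from separate animals, so p-values rest on library-to-library spread, which may be technical.

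The 282 dense domains fell into 6 regions on 5 chromosomes. The largest, chr10:79303201-81064335, held 164 of them (58.2%) in 1.76 Mb, and 24.4% of its length was covered by domains of any width. There a domain had up to 344 others within 1 Mb. The second, chr15:78277453-79595515, held 74 (26.2%) in 1.32 Mb, with 15.2% of its length in domains. Chromosome 11 had 22 members at chr11:97603965-98159788 and 8 at chr11:115990602-116084399. The remaining regions were chr5:124978107-125344597 with 8 members and chr7:52390781-52489908 with 6. Median signal per length, as read counts scaled by library size with TMM factors (CPM) per kb, was 24.6 in the chromosome 5 region, 14.4 on chromosome 10 and 10.8 on chromosome 15.

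The median width was 1680.5 bp (quartiles 1145.25 and 2573.5) in dense domains against 1646 bp for domains of the same range with fewer neighbours. The nearest other domain was 663.5 bp away at the median, against 3588 bp. For 164 dense domains (58.2%) this gap was at most 1 kb, as for 35.7% of the others. Before TMM scaling, their median signal was 13.5 CPM per kb against 16.7, so packing was close but signal per length was not higher. The domain with the most neighbours, chr10:80117581-80119094, is 1514 bp wide and had 20.7 CPM per kb. The highest signal per length, 49.2 CPM per kb, was at chr11:97887005-97889861, and the lowest, 5.83, at chr10:80491666-80492613. At the edge of the rule, 11 members with exactly 200 neighbours had a median of 18.1 CPM, and 9 domains with 1 neighbour fewer had 20.3. The narrowest member, chr10:79399587-79400362, had 6.00 CPM over all libraries, and the next narrower domain with enough neighbours, of 773 bp, had 5.90. The widest, chr15:79229987-79234796 of 4810 bp, had 103 CPM, and the next wider domain, of 5292 bp, had 102.

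The part of the reads that fell in dense domains differed between groups by less than the spread between libraries in 3 of 4 comparisons. Their share of the reads in autosomal domains of this width was 1.33%, 1.31% and 1.33% in the tau libraries at 11 months and 1.32%, 1.30% and 1.33% in wild type. The means were 1.323 ± 0.0135% and 1.318 ± 0.0141% (SD, n = 3 each), a difference of 0.00527 percentage points, well within the spread of either group. At 6 months the shares were 1.30% and 1.29% in tau and 1.31%, 1.30% and 1.29% in wild type mice. At 2 weeks the 3 CK-p25 libraries, at 1.28%, 1.28% and 1.27%, lay within the CK range of 1.26% to 1.29%. With a minimum of 250 neighbours these groups did not overlap, at 0.427% to 0.434% in CK-p25 and 0.442% to 0.448% in CK libraries. With a minimum of 150 they overlapped, at 8.03% to 8.23% and 8.08% to 8.24%.

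At 6 weeks the groups did not overlap, but the gap was narrow, from 1.257% in CK to 1.265% in CK-p25 libraries. CK-p25 libraries had 1.27%, 1.28% and 1.33% of the reads in dense domains, and CK libraries 1.26%, 1.23% and 1.26%. The difference was 0.0431 percentage points, on means of 1.290 ± 0.0342% and 1.247 ± 0.0166% (SD, n = 3 each). Without CK-p25 replicate 3, a shallow library and the highest of its group, it was 0.0236 points. CK replicate 2, with 1.55 M reads, had the lowest share among the CK libraries. With a minimum of 150 neighbours CK-p25 libraries had 8.06% to 8.35% and CK libraries 7.84% to 8.05%, also without overlap. With a minimum of 250 the groups overlapped, at 0.431% to 0.448% and 0.422% to 0.438%. The read share is a score over the members and was not tested.

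**Figure D1:**
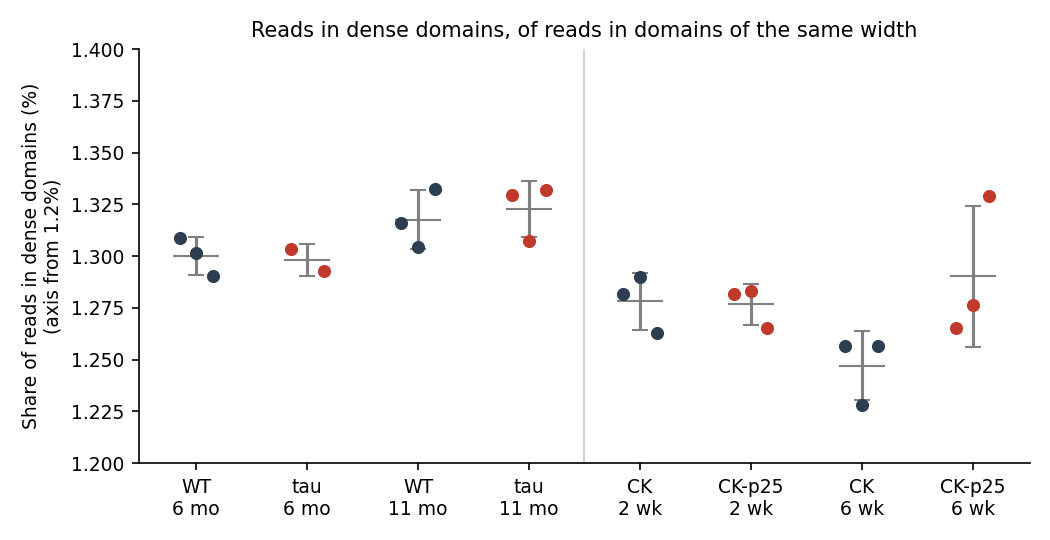
Share of reads in dense domains, in percent of the reads in autosomal domains of the same width range, by library (points) with the group mean and SD (grey bars); the axis starts at 1.2%. Model and control libraries overlap at 6 months, 11 months and 2 weeks, while at 6 weeks the CK-p25 libraries (1.27% to 1.33%) lie above the CK libraries (1.23% to 1.26%).

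In tau mice at 11 months 15 dense domains gained H3K9ac and 34 lost it, which is 17.4% of the 282 (edgeR quasi-likelihood test, adjusted p under 0.05 over all domains). Of all 44105 domains tested, 11.96% were called (4.4% higher and 7.56% lower), and of the domains of the same width with fewer neighbours 17.9% (6.22% and 11.7%). The share of dense domains called was thus near that of other domains of their width. Median log2 changes were 0.49 for the gains and -0.58 for the losses, while the median of all 282 was 0.01, beside 0.01 over all domains. Tau and wild type libraries did not overlap at 86 members (30.5%), against 25.03% of all domains and 30.8% of those of the same width. Of the 49 called, 45 had groups that did not overlap. The same libraries gave the small p, which favours such groups, so this count adds no support to the calls.

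The split of these calls depended on scaling, with 22 higher and 26 lower with library totals, and 23 and 29 with loess offsets. Cross correlation separated the groups at 11 months, and with it as a covariate 5 of the 49 were called, beside 695 of all domains. All 49 kept their sign there. Their median size was 0.46 in place of 0.56 and their median standard error 0.24 in place of 0.11. Genotype and cross correlation cannot be told apart at this age. The 5 domains called with the covariate are 2 gains (chr10:79535676-79539111 and chr10:80986067-80987082) and 3 losses (chr15:78371693-78375819, chr10:79818687-79820117 and chr10:80719853-80722625).

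The leading gain was chr10:79535676-79539111, a domain of 3436 bp with 246 neighbours. Its level was 66.1, 52.1 and 69.2 CPM in tau libraries at 11 months and 25.7, 22.4 and 26.7 CPM in wild type. Every tau library was thus well above every wild type library. The log2 change was 1.33 ± 0.10 (SE), or 2.52-fold, with an adjusted p of 6.75e-17 in edgeR's test. At 6 months the level was 24.1 and 25.3 CPM in tau and 23.9, 22.7 and 22.4 CPM in wild type mice, a log2 change of 0.10 ± 0.14 that did not pass (adjusted p = 1 in edgeR's test).

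The same domain was higher in CK-p25 mice at both times. At 2 weeks the libraries had 46.0, 59.4 and 58.8 CPM, and the CK controls 27.2, 24.0 and 16.9 CPM. At 6 weeks they had 46.3, 48.6 and 61.8 CPM, against 25.9, 25.7 and 21.5 CPM. Control levels were similar in all 4 settings, between 16.9 and 27.2 CPM, and the groups did not overlap at either time. The log2 changes were 1.23 ± 0.14 at 2 weeks (edgeR adjusted p = 1.02e-11) and 1.00 ± 0.16 at 6 weeks (edgeR adjusted p = 4.11e-06). The neighbouring dense domain chr10:79533599-79535153, whose midpoint lies 3.02 kb away, gained 0.49 ± 0.16 in log2 in tau mice at 11 months (edgeR adjusted p = 0.0245). It did not pass in CK-p25 mice, at 0.29 and 0.25.

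The second gain, chr10:80986067-80987082, is narrower, at 1016 bp, and lies near the other end of the region. Its level was 17.9, 12.8 and 18.2 CPM in tau mice at 11 months against 7.08, 7.39 and 6.99 CPM in wild type. That is a log2 change of 1.21 ± 0.18 (edgeR adjusted p = 3.07e-07), with the groups apart. CK-p25 mice had 10.5, 16.2 and 18.4 CPM at 2 weeks, against 10.9, 6.196 and 5.13 CPM in CK mice. One CK library therefore exceeded the lowest CK-p25 library, and the log2 change of 1.00 ± 0.24 was called (edgeR adjusted p = 0.0074). At 6 weeks CK-p25 mice had 14.4, 13.7 and 19.3 CPM and CK mice 6.40, 6.58 and 3.08 CPM, a log2 change of 1.361 ± 0.30 (edgeR adjusted p = 0.0017). At 6 months the tau libraries, at 5.33 and 6.17 CPM, were below the wild type libraries, at 8.90, 8.79 and 7.07 CPM, a log2 difference of -0.52 ± 0.25 that did not pass (edgeR adjusted p = 1).

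Other gains at 11 months were smaller. The third, chr10:79450564-79453024, had 32.9, 37.6 and 40.8 CPM in tau and 23.6, 21.98 and 27.5 CPM in wild type mice, a log2 change of 0.60 ± 0.11 (edgeR adjusted p = 3.01e-05). The chromosome 15 region held 5 gains, at log2 changes between 0.42 and 0.61. These were chr15:78756124-78758713 (0.49), chr15:78813426-78814412 (0.45), chr15:79177606-79179204 (0.42), chr15:79207615-79209108 (0.61) and chr15:78411615-78412608 (0.57). In the chromosome 11 region near 116 Mb, chr11:116048434-116049421 had 11.1, 9.45 and 10.5 CPM in tau and 3.79, 7.20 and 8.29 CPM in wild type mice. Its log2 change of 0.70 rests on low levels and has a standard error of 0.21.

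The 2 losses with the smallest p at 11 months were in domains wider than the upper quartile of members (2573.5 bp). The domain chr15:78371693-78375819, of 4127 bp, had 32.3, 39.5 and 27.8 CPM in tau and 61.1, 62.2 and 59.5 CPM in wild type mice. All tau libraries were far below the narrow wild type range, and the log2 change was -0.89 ± 0.09 (edgeR adjusted p = 3.38e-12). The domain chr15:79332489-79336424, of 3936 bp, had 59.5, 50.6 and 43.4 CPM in tau and 102, 92.0 and 87.1 CPM in wild type mice. Its log2 change was -0.87 ± 0.08 (edgeR adjusted p = 1.47e-11). At 6 months neither passed, at log2 values of -0.07 ± 0.10 and -0.02 ± 0.09, both with an adjusted p of 1 in edgeR's test.

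The largest loss in size was at chr10:79818687-79820117, a domain of 1431 bp with 291 neighbours. Tau libraries had 11.1, 13.3 and 12.7 CPM and wild type libraries 29.0, 26.6 and 29.3 CPM. The log2 change was -1.20 ± 0.13 (edgeR adjusted p = 9.39e-11), a level 0.435 times that of wild type. At 6 months the order was the opposite, with 28.2 and 23.4 CPM in tau and 22.9, 21.4 and 21.6 CPM in wild type mice, at a log2 value of 0.24 ± 0.14 that did not pass.

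A pair of adjacent dense domains on chromosome 10 fell together. At chr10:80714707-80716911 tau libraries had 23.2, 24.7 and 17.8 CPM and wild type libraries 44.3, 43.8 and 33.2 CPM, a log2 change of -0.89 ± 0.11 (edgeR adjusted p = 5.16e-09). At chr10:80719853-80722625 they had 54.0, 65.9 and 46.2 CPM against 84.7, 85.0 and 83.4 CPM, a log2 change of -0.62 ± 0.08 (edgeR adjusted p = 7.71e-09). In the chromosome 7 region chr7:52422645-52424791 had 22.4, 23.7 and 18.03 CPM in tau and 44.8, 39.1 and 33.0 CPM in wild type mice. Its log2 change was -0.87 ± 0.11 (edgeR adjusted p = 9.69e-09), and the groups were apart in all 3 cases. The remaining losses among the 10 with the smallest p were chr10:80942710-80945988 (-0.60), chr15:78744392-78747550 (-0.61), chr10:79599453-79602541 (-0.48) and chr10:80486886-80488873 (-0.56).

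**Figure D2:**
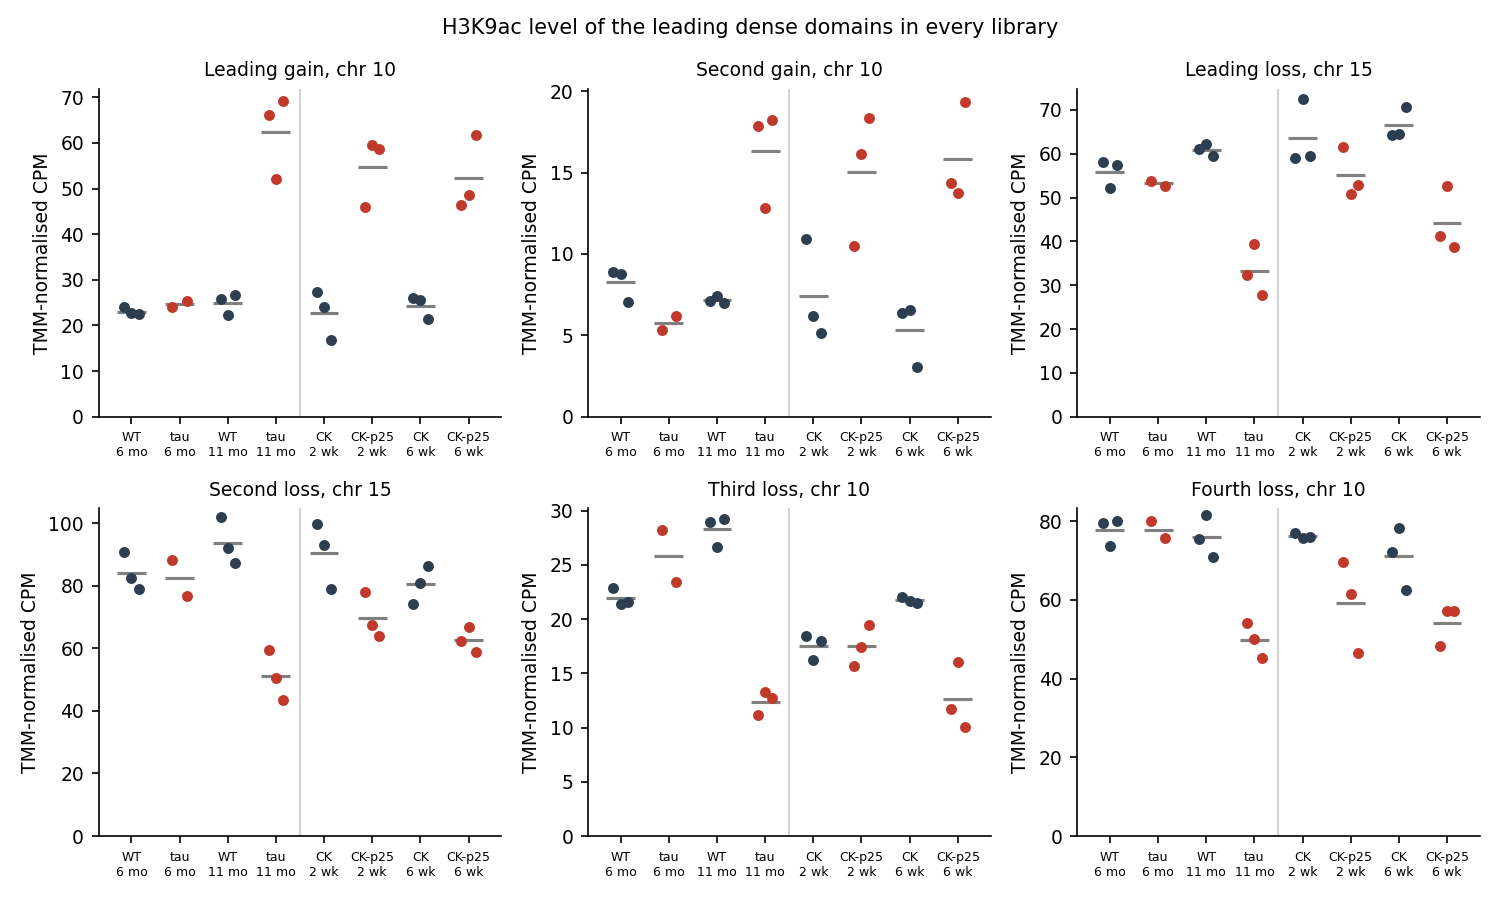
H3K9ac level in TMM-normalised CPM, in every library (points) with group means (grey lines), of the 2 leading gains and the 4 leading losses in tau mice at 11 months; vertical lines separate the mouse models, which were normalised apart. The leading gain has 52.1 to 69.2 CPM in tau mice at 11 months and 46.0 to 61.8 CPM in CK-p25 mice, against 16.9 to 27.2 CPM in every other library.

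By region, the calls at 11 months were 9 gains and 20 losses on chromosome 10 and 5 and 8 on chromosome 15. The chromosome 11 regions had 3 losses near 98 Mb and 1 gain near 116 Mb, chromosome 7 had 2 losses and chromosome 5 had 1 loss. Among the narrowest 94 members (up to 1336 bp) 6 rose and 7 fell, and among the widest 94 (from 2261 bp) 4 rose and 15 fell. Median standard errors were 0.19 and 0.08 in these sets, so smaller changes could be called in wide domains.

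Domains close to each other did not all move the same way. At chr10:79810346-79811481 tau libraries had 18.4, 18.7 and 20.4 CPM and wild type libraries 16.0, 12.6 and 14.3 CPM, a gain of 0.42 in log2 close to the threshold (edgeR adjusted p = 0.0473). Its next domain on one side, chr10:79806963-79807811, with midpoints 3.53 kb apart, fell by 0.96 on the log2 scale. On the other side the loss at chr10:79818687-79820117 (-1.20) is the next domain, 8.49 kb away. On chromosome 15 the gain chr15:78756124-78758713 and the loss chr15:78744392-78747550 lie 11.4 kb apart, with 1 domain between them. These pairs were chosen after their values were seen.

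A domain next to a called dense domain often did not pass. Of the 15 gains, 2 (13.3%) had an adjacent domain with the same call, against 24.4% of the gains among domains of the same width with fewer neighbours. Of the 34 losses 11 (32.4%) did, against 28.7%. An adjacent domain with the opposite call was found for 3 losses (8.82%, against 3.69%) and 1 gain (6.67%, against 4.92%). The losses chr10:79806963-79807811 and chr10:79818687-79820117 both lie next to the same gain, chr10:79810346-79811481, which was called close to the threshold. Dense domains also lie nearer to their next domain (663.5 bp at the median, against 3588 bp), so the 2 sets are not alike in this respect. These shares are descriptions and were not tested against each other. About 28 kb beyond the third gain, a narrow domain that is no member, chr10:79479497-79480194, was higher in tau mice at 11 months (log2 1.26) and in CK-p25 mice at 2 weeks (1.29) and 6 weeks (1.22). It was chosen after its values were seen. All 3 differences passed edgeR's test, with adjusted p-values of 4.68e-05, 0.00329 and 0.0196.

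**Figure D3:**
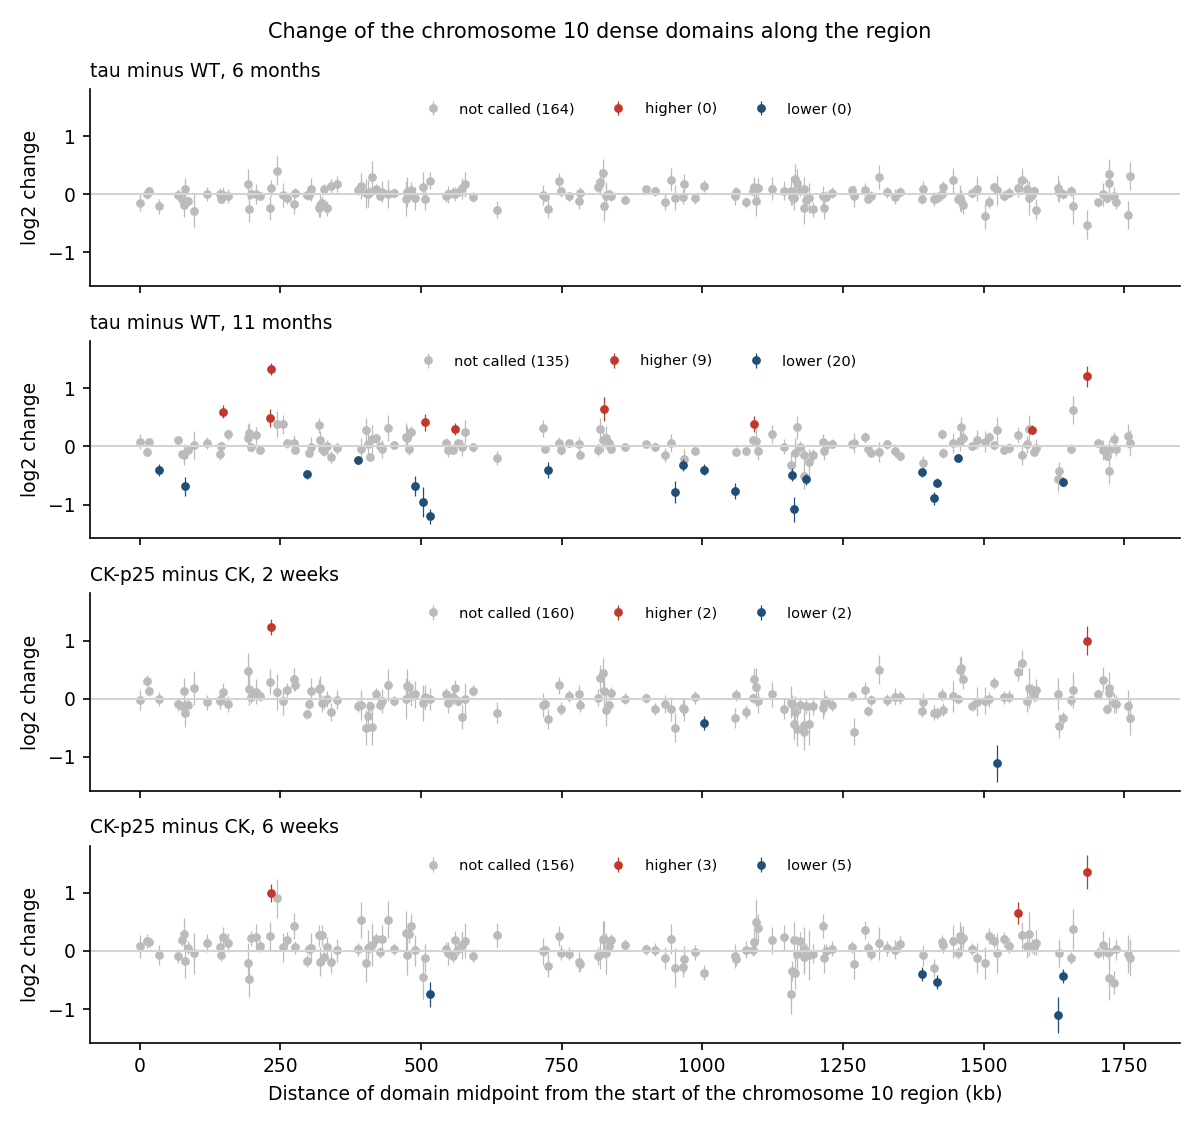
Log2 change (points) with its standard error (bars) of the 164 dense domains of the chromosome 10 region, against the distance of their midpoints from the start of the region in kb, for 4 comparisons. No domain is called at 6 months, while at 11 months 9 gains and 20 losses are spread along the whole region and lie between one another.

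When reads were summed over all domains of a 1 Mb stretch, changes were small. The 5 autosomal bins with 10 or more dense domains had log2 differences between -0.08 and -0.03 in tau mice at 11 months, and 4 were called lower, where 40.9% of the 2160 bins were called in either direction. The bin at 80 to 81 Mb of chromosome 10, with 90 dense domains among 185 domains, differed by -0.06 ± 0.01 (SE, edgeR adjusted p = 0.000424). The chromosome 15 bin at 79 to 80 Mb differed by -0.08 ± 0.02 (edgeR adjusted p = 0.000804). These calls changed with the scaling: 3 of the 5 bins were called with DESeq2 size factors, and 0 with library totals or with TMM factors of the bins themselves. With cross correlation as a covariate 0 were called. With library totals the chromosome 10 bin at 79 to 80 Mb and the chromosome 15 bin at 78 to 79 Mb were at 0.01 each. In CK-p25 mice 0 of the 5 bins passed in edgeR's test at 2 weeks (2.84% of 2149 bins called) and at 6 weeks (13.7%). The smallest unadjusted p of these bins in edgeR's test was 0.0586 at 2 weeks (chromosome 10, 80 to 81 Mb). At 6 weeks it was 0.0178 (chromosome 15, 78 to 79 Mb). For the tau difference between the ages 1 of the 5 passed (21.5% of bins), and at 6 months and for the difference between 6 and 2 weeks 0 did (0.0% of bins each).

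At 6 months 0 dense domains were called in tau mice, where 0.0% of all domains were. At an unadjusted p under 0.05 in edgeR's test there were 4 (1.42%), against 3.23% of all domains and 3.17% of those of the same width with fewer neighbours, and DESeq2 also called 0 members. The median log2 difference was 0.00, with values from -0.52 to 0.40. The smallest p among higher values was at chr11:97848766-97851854, with 70.9 and 70.4 CPM in tau and 62.3, 63.9 and 63.8 CPM in wild type mice (log2 0.16 ± 0.08). It was followed by chr10:80047030-80050309 (0.23) and chr15:78998738-79000463 (0.35, with tau libraries at 10.5 and 18.3 CPM). Among lower values chr15:78662389-78663808 (-0.48) and chr15:78673059-78677104 (-0.16) had the smallest p, beside the second gain named above. The tau group has 2 libraries at this age, and the median standard error over dense domains was 0.14, against 0.12 at 11 months.

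Testing the 11-month effect of tau against the 6-month effect with edgeR called 21 dense domains (7.45%), where 4.23% of all domains (1.02% higher, 3.21% lower) and 6.95% of those of the same width with fewer neighbours passed. At 4 the effect was higher and at 17 lower at 11 months, and all 21 had been called in that direction at 11 months. Both tests use the same 11-month libraries and no domain was called at 6 months, so this agreement was largely set in advance. Higher were chr10:80986067-80987082 (1.73), chr10:79535676-79539111 (1.23), chr15:78756124-78758713 (0.64) and chr10:79450564-79453024 (0.62). The lower side was led by chr10:79818687-79820117 (-1.44 ± 0.20, edgeR adjusted p = 1.91e-07) and chr15:79332489-79336424 (-0.85). It went on with chr7:52422645-52424791 (-1.05), chr15:78371693-78375819 (-0.82) and chr15:78744392-78747550 (-0.73). Sex changed with age in these groups. The count was 10 without tau replicate 1 at 6 months, 14 without tau replicate 3 at 11 months and 4 with cross correlation as a covariate. With library totals in place of TMM, 6 were higher and 13 lower.

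At 2 weeks after induction 2 dense domains had gained and 3 had lost the mark (1.77%), where 2.12% of all domains (1.51% higher, 0.613% lower) and 2.73% of those of the same width with fewer neighbours were called. Both gains were those described above on chromosome 10. The first loss was chr15:79332489-79336424, with 78.0, 67.3 and 63.9 CPM in CK-p25 and 99.7, 92.9 and 79.0 CPM in CK mice, a log2 change of -0.38 ± 0.09 (edgeR adjusted p = 0.00835). The second was chr10:80304537-80308045, with 46.5, 38.6 and 39.3 CPM against 49.4, 58.1 and 59.5 CPM (-0.42 ± 0.12). The third, chr10:80827199-80828048, had 2.94, 3.65 and 4.41 CPM against 7.54, 7.74 and 8.21 CPM (-1.11 ± 0.31). In tau mice at 11 months this low-level domain was at 0.29 and did not pass. The count was 1 without CK or CK-p25 replicate 2, 2 without CK or CK-p25 replicate 3, and 3 without CK replicate 1.

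By 6 weeks 5 had gained and 7 had lost it (4.26%), where 2.65% of all domains (1.32% higher, 1.33% lower) and 3.56% of those of the same width with fewer neighbours were called. Beside the 2 leading gains on chromosome 10, chr15:78813426-78814412 had 34.6, 30.5 and 31.7 CPM against 21.8, 16.5 and 18.5 CPM (0.73 ± 0.18, edgeR adjusted p = 0.00785). The domain chr11:115990602-115993330 had 65.1, 70.0 and 92.7 CPM against 55.0, 59.2 and 44.1 CPM (0.42 ± 0.12). The fifth gain was chr10:80862649-80865262, with 24.4, 29.5 and 35.5 CPM against 18.6, 17.1 and 17.4 CPM (0.66 ± 0.19). CK-p25 and CK libraries did not overlap at any of the 12 called domains. A small p favours groups that do not overlap, so this adds no support to the calls. Among all dense domains 47 (16.7%) had no overlap, against 17.3% of all domains and 19.6% of those of the same width with fewer neighbours.

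Of the losses at 6 weeks, chr10:80719853-80722625 had 48.8, 49.2 and 47.1 CPM in CK-p25 and 64.6, 68.4 and 87.1 CPM in CK mice (-0.53 ± 0.12, edgeR adjusted p = 0.00274). At chr15:78371693-78375819 the levels were 41.2, 52.6 and 38.6 CPM against 64.3, 64.5 and 70.7 CPM (-0.55 ± 0.12, edgeR adjusted p = 0.00281). At chr10:79818687-79820117 they were 11.7, 16.1 and 10.05 CPM against 22.1, 21.7 and 21.5 CPM (-0.75 ± 0.21). These 3 had also fallen in tau mice at 11 months. The others were chr10:80942710-80945988 (-0.44), chr7:52422645-52424791 (-0.52), chr10:80691901-80694484 (-0.40) and chr10:80934682-80935696 (-1.10), the last with 2.93, 6.70 and 10.05 CPM against 10.9, 11.8 and 14.4 CPM.

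The count at 6 weeks changed with the libraries used. It was 4 without the shallowest library of each group, 5 without CK-p25 replicate 1, 7 without CK-p25 replicate 3, and 8, 6 and 7 without CK replicates 1, 2 and 3. The median log2 change of all dense domains was 0.04 at 6 weeks, beside 0.00 over all domains. Over domains of the same width with fewer neighbours it was 0.001. Values above and below 0 numbered 166 and 116 in dense domains, against 10332 and 10257 in those of the same width. Over all domains they numbered 18994 and 19199. Dense domains lie close together and share their libraries, so their values are not independent. The median of dense domains was 0.02 without CK-p25 replicate 3, 0.06 without CK-p25 replicate 1 and 0.07 without CK replicate 1. Among domains of this width, medians were -0.02 with 0 to 49 neighbours and 0.01, 0.02 and 0.03 in the next steps of 50. Dense domains had 0.06 below 250 neighbours and 0.02 from 250, so positive medians were not confined to them. The difference between 6 and 2 weeks passed at 0 dense domains in edgeR's test and in DESeq2, where edgeR called 0.00524% of all domains and 0.00971% of those of the same width. At an unadjusted p under 0.05 there were 13 dense domains (4.61%), near the 4.76% of all domains and 5.02% of those of the same width.

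In tau mice at 11 months the share of domains of this width that was called differed little with the number of neighbours. It was 19.3% with 0 to 49 neighbours and 17.2%, 16.8% and 16.7% in the next steps of 50. It was 16.8% of the 184 dense domains with fewer than 250 neighbours and 18.4% of the 98 with 250 or more. In CK-p25 mice the dense domains held too few calls for such a comparison, with 4 and 1 at 2 weeks and 10 and 2 at 6 weeks in these steps.

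**Figure D4:**
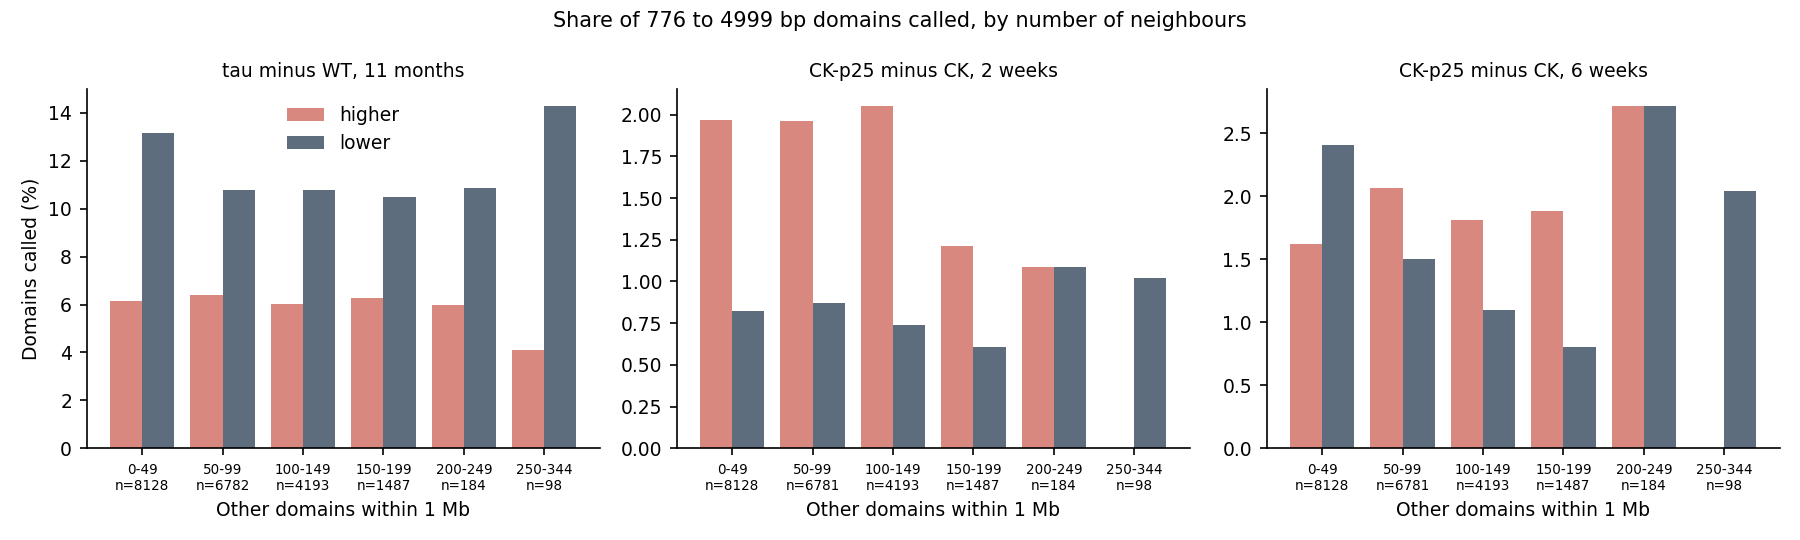
Percent of autosomal domains of the same width range called higher (red) or lower (grey) by the number of other domains within 1 Mb, for 3 comparisons, with the number tested under each step; the vertical axes differ between panels. The 2 right-most steps of each panel are the dense domains, with 31 and 18 calls in tau mice at 11 months.

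Changes of the 2 models mostly had the same sign at the dense domains called in tau mice, about as often as at other domains of their width. These comparisons share no library. Of the 15 gains in tau mice at 11 months, 2 were called gains in CK-p25 mice at 2 weeks (13.3% of the tau list, 100% of the CK-p25 list) and 3 at 6 weeks (20% and 60%). Of the 34 losses, 2 were called at 2 weeks (5.88% and 66.7%) and 6 at 6 weeks (17.6% and 85.7%). Called in opposite directions were 0 dense domains. Among domains of the same width with fewer neighbours, 22.2% of the tau gains shared their call at either time, and 6.27% and 13.0% of the losses at 2 and 6 weeks. In CK-p25 mice 13 of the 15 gains had values above 0 at 2 weeks and 14 at 6 weeks, with medians of 0.18 and 0.25. Of the 34 losses 31 and 29 were below 0, with medians of -0.19 and -0.22. These are 86.7% and 93.3% of the gains and 91.2% and 85.3% of the losses, against 83.3% and 89.8%, and 85.9% and 89.2%, at other domains of the same width.

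In tau mice at 6 months 5 of the 15 gains (33.3%) were above 0 and 18 of the 34 losses (52.9%) below 0. At domains of the same width with fewer neighbours these shares were 49.6% and 52.1%, and over all domains 51.1% and 51.6%. None of these 6-month values was called, and the shares were not tested against each other. Over all 282 dense domains, which lie close together and share their libraries, the rank correlation (Spearman) of changes in tau mice at 11 months with those in CK-p25 mice was 0.387 at 2 weeks and 0.462 at 6 weeks. It was 0.417 and 0.497 over domains of the same width with fewer neighbours. The 2 leading gains, and 0 losses, passed in all 3 of these comparisons, and the matching count over all domains is not given here. The calls of chr10:79535676-79539111 were kept under every alternative run. Those of chr10:80986067-80987082 in CK-p25 mice, at 2 and at 6 weeks, were each lost under some alternative. Called in at least 1 of the 4 comparisons were 53 dense domains (18.8%), near the 19.1% of domains of the same width with fewer neighbours and against 14.3% of all domains tested in both series. The other 229 were called in none, among them the domain with the most neighbours and the domain with the highest signal per length.

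**Figure D5:**
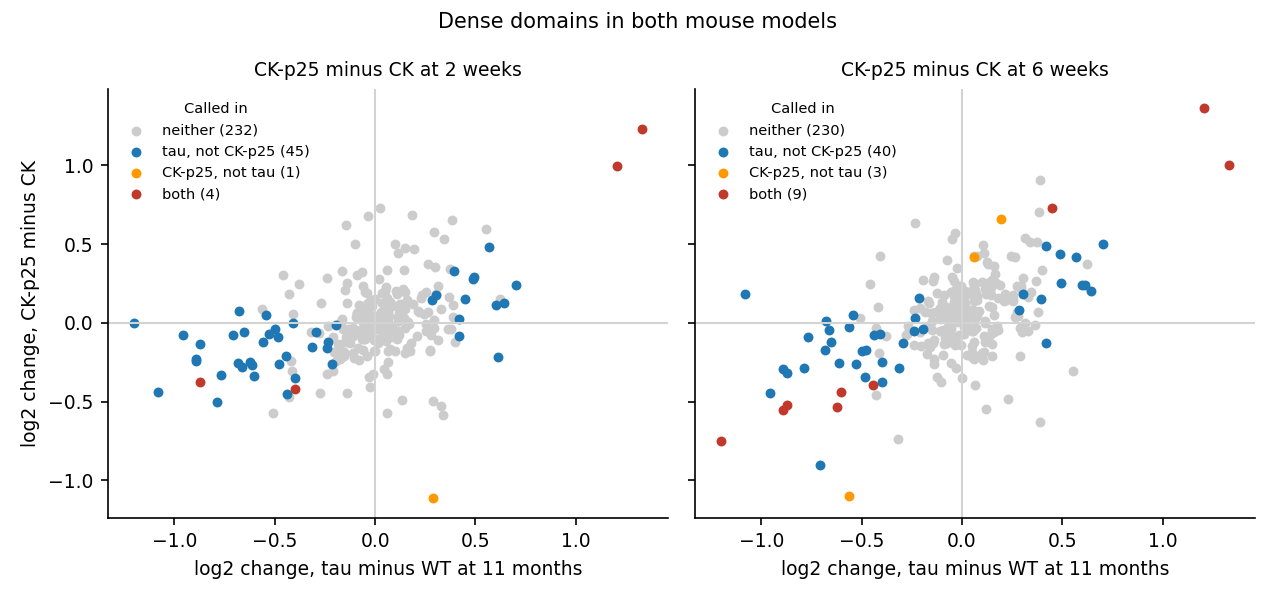
Log2 change of the 282 dense domains in CK-p25 mice at 2 weeks (left) and 6 weeks (right) against the change in tau mice at 11 months, coloured by the comparisons in which a domain was called. Points called in both models lie in the upper right or lower left, and the 2 leading gains are the points farthest to the upper right.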

How the data were processed

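H3K9ac was measured by single-end ChIP-seq in mouse hippocampus. Per the series' design text, the authors defined a common set of domains, with input DNA as negative control, and deposited raw read counts per domain and library, with no normalization. The 22 input libraries have no count column. Domain coordinates came from the authors' deposited peak list (columns of start and end). The submitters' processing notes list MACS2, Picard 1.1175, BWA and build mm9, with no roles or parameters. The sources used here do not say whether samples were pooled for calling domains. Libraries were grouped by their labels, and 0 count columns were left without a sample. The gene and promoter tables at hand are of another build, so no gene names or sequences are given.

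Counts were tested with edgeR 4.0.16 (R 4.3.3): TMM factors, filterByExpr by group, robust quasi-likelihood F test, two-sided, Benjamini-Hochberg adjustment over all domains tested, threshold 0.05. The tau series (11 libraries) and the CK-p25 series (12) used different antibody lots and were fitted apart, with a mean per group. Members are autosomal domains of 776 to 4999 bp with 200 or more others within 1 Mb. All 282 dense domains were tested in both. Standard errors are the size of the log2 change over the square root of F. Sums of counts over each 1 Mb bin were tested the same way. Levels are TMM-normalised CPM. Depth was 0.996 to 6.18 M reads per library. Reads have no molecular identifiers. The scripts were tested on simulated data. Chi-square per degree of freedom between replicates was 1.10 to 1.88 over 22 pairs, and each was kept as its own library.

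Named domains were, in each comparison and direction, the 10 with the smallest adjusted p among those called whose log2 change was 0.3 or more in size, or the 3 with the smallest p where none was called. Added were those called in both models, the 5 per direction for each difference between ages or times, and the extremes of neighbours, width and signal. The members and lists were chosen with earlier results of these data known. Alternatives were other scalings, no filter, DESeq2 1.42.0, a threshold of 0.01, a replicate block, cross correlation as a covariate, the compared groups or autosomes alone, other neighbour minimums (150 and 250), any width, 0.5 Mb bins and each library left out. Leaving out both shallow 6-week libraries and TMM factors of the bins were added after seeing the data.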

Additional observations from a re-analysis of the deposited data

Results flagged for a closer look

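At 21 dense domains the tau effect at 11 months was set apart from that at 6 months by a contrast of both effects in edgeR. In these groups age and sex changed together, so neither can be set apart. The 4 that were higher at 11 months had log2 differences of 1.73 (chr10:80986067-80987082), 1.23 (chr10:79535676-79539111), 0.64 (chr15:78756124-78758713) and 0.62 (chr10:79450564-79453024). The first of these combined a gain at 11 months (1.21) with a value of -0.52 at 6 months that did not pass.

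The 5 lower ones with the smallest p had differences of -1.44 (chr10:79818687-79820117), -1.05 (chr7:52422645-52424791), -0.85 (chr15:79332489-79336424), -0.82 (chr15:78371693-78375819) and -0.73 (chr15:78744392-78747550). The chromosome 10 bin at 80 to 81 Mb, with 90 dense domains, also differed between the ages, by -0.0639 in log2 (edgeR adjusted p = 0.0186), where 21.5% of all bins did. That bin did not pass with library totals (adjusted p = 0.514 in edgeR's test), with TMM factors of the bins (0.449), with cross correlation as a covariate (0.494), without tau replicate 1 at 6 months (0.244) or without wild type replicate 3 at 6 months (0.0618).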

How the results depend on the processing

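Of the 46 calls at named domains, 815 of 945 repeats under an alternative kept direction and significance, 130 lost significance and 0 reversed. Cross correlation as a covariate ended 23 and the DESeq2 Wald test 16. The 11 calls kept under every alternative run include chr10:79535676-79539111 in all 4 comparisons that called it. The uncalled value of chr15:78998738-79000463 at 6 months (0.35) was -0.10 without tau replicate 2 and 0.71 without tau replicate 1.

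In the order tau at 11 months, CK-p25 at 2 and at 6 weeks, and tau at 11 minus 6 months, the main counts of called members are 49, 5, 12 and 21. They were 298, 32, 52 and 119 with 150 neighbours and 18, 1, 2 and 6 with 250, where the number of members changes (1769 and 98). With the DESeq2 Wald test they were 33, 1, 5 and 12, and with a threshold of 0.01 they were 33, 3, 5 and 13. Any width gave 9 at 2 weeks, where the set grows to 584 domains before filtering. The covariate gave 5 at 11 months and 4 for the difference of ages. Without both shallow libraries 4 were called at 6 weeks. Leaving out 1 library gave 34 to 50, 1 to 6, 5 to 12 and 10 to 23, and 0 in the 2 comparisons with 0 calls.

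Of the 5 bins, 4 were called at 11 months, 3 with DESeq2 size factors, 0 with library totals, 0 with TMM factors of the bins, 0 with the covariate and 3 to 4 without 1 library. At 6 weeks 1 was called with library totals, 1 with TMM factors of the bins and 0 to 1 without 1 library. At 2 weeks leaving out 1 library gave 0.

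The difference in read share, 0.00527 points at 11 months, was 0.0432 with 150 neighbours and -0.00137 to 0.0130 without 1 library. At 6 months these were -0.00204, 0.00683 and -0.00741 to 0.00333. At 2 weeks they were -0.00144, -0.0415 and -0.00905 to 0.00444, with -0.0146 at 250 neighbours. At 6 weeks they were 0.0431, 0.228 and 0.0236 to 0.0557, with 0.00645 at 250 neighbours. Points at different neighbour minimums cannot be compared directly, since the share itself changes with the number of members. In CK mice at 6 weeks its mean was 1.25%, but 7.96% with 150 neighbours and 0.431% with 250. In wild type mice at 11 months it was 1.32%, but 8.34% with 150 neighbours.

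Same-numbered replicates showed little joint deviation over single domains (correlations -0.0124 to 0.0501), and libraries were not treated as pairs. Counting noise lowers such correlations, so they cannot exclude a pairing. With the replicate block 47, 5, 11 and 15 members and 4 bins at 11 months were called. Other scalings moved the median log2 change of all domains by at most 0.0472. The median standard error over members was 0.16 at 2 weeks and 0.19 at 6 weeks in the CK-p25 series, and 0.12 and 0.14 at 11 and 6 months in the tau series. Libraries of the CK-p25 series are mostly shallower and have lower cross correlation, and the part of either was not tested.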
